A study of Mus musculus with 4 samples.

Results

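The laminin chains were read with 17 probe sets of 9 genes, Lama1 to Lama5, Lamb1, Lamb2, Lamb3 and Lamc1, out of 45037 probe sets that were not controls. They were all the probe sets whose only gene symbol in the platform annotation was one of these genes, whatever their measured values. The gene family itself was chosen with earlier results of these data known. RNA came from mesothelial and submesothelial cells, the covering cell sheet of the liver and the layer under it, cut by surgery from C57BL/6 embryos at embryonic day 17.5. The p57-/- embryos carried the genotype labelled Kip2 -/- and lacked p57, the cyclin-dependent kinase inhibitor encoded by Cdkn1c. The p57+/+ embryos were wild type, and no other allele or agent is labelled for either genotype. There were 2 arrays of each genotype, 1 of each in experiment 1 and 1 of each in experiment 2, by the sample titles. What an experiment shared, and whether a sample was 1 embryo or a pool, is not given in the sources used here, so the p-values cover the spread among these 4 samples alone and part of it may be technical.

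Laminins are heterotrimers of an alpha, a beta and a gamma chain, secreted into basement membranes, where they form the sheet that cells bind through integrins and dystroglycan. The alpha chain carries the main binding sites for those receptors, while the beta and gamma chains complete the coiled trimer, and the gamma 1 chain binds nidogen. Mesothelium rests on such a sheet, and fetal liver holds basement membranes mainly at its surface, its vessels and its bile ducts. Laminin with the alpha 1 chain is a form of the early embryo and of developing epithelia, alpha 2 is the form of muscle and peripheral nerve, alpha 3 with beta 3 is a form of stratified epithelia, and alpha 5 is widespread in mature epithelia and vessels.

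Lamb1 and Lama5 lay higher in p57-/- and Lama2 lay lower, though none of these changes passed the test given below. Promoters of these genes, at both ends of the range of changes, are printed first. They run 5′ to 3′ on the gene's strand, from 250 bases before to 50 bases after the start of transcription in RefSeq (build GRCm38.p6). Capitals mark matches to the GC box (GGGCGG) and the CCAAT box (CCAAT) on either strand. The Lamb1 promoter is chr12:31265043-31265342 (+ strand), the Lama5 promoter chr2:180225810-180226109 (- strand) and the Lama2 promoter chr10:27616893-27617192 (- strand).
Lamb1: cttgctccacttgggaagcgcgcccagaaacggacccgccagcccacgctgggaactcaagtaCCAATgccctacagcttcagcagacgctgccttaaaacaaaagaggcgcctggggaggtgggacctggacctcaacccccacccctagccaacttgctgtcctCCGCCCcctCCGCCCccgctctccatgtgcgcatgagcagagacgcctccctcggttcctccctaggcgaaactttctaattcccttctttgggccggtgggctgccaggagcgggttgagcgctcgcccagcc
Lama5: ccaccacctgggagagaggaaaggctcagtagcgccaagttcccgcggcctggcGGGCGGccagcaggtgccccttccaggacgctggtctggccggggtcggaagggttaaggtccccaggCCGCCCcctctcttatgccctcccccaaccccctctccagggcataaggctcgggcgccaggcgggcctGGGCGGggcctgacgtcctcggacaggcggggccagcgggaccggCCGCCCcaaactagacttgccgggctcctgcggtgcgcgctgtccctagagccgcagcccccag
Lama2: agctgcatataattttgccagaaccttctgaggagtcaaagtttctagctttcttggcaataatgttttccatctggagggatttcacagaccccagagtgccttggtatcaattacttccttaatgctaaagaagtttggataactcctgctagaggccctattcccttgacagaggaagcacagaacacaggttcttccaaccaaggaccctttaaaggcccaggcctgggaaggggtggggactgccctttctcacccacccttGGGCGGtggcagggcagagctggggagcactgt

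The Lamb1 window held 2 matches to the GC box and 1 to the CCAAT box. The Lama5 window held 4 matches to the GC box, and the Lama2 window held 1, which lies after the start. The TATA box (TATAAA) and the AP-1 site (TGANTCA), searched on both strands in the same way, gave 0 matches in these windows. The Lamb2 window and both Lamb3 windows, not printed here, held 0 matches to any of these motifs, the GC box and the CCAAT box included. Of all 32851 promoter windows, 35.7% held a GC box, 37.4% a CCAAT box, 13.6% a TATA box and 7.81% an AP-1 site. The share of G and C bases was 63.7% for Lamb1, 72.7% for Lama5 and 50.3% for Lama2, beside a median of 52.7% over all windows. These matches describe the letters only, binding at them was not measured, and a link between them and the changes in signal was not tested.

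The arrays matched their labelled genotype and differed in a few other ways. Cdkn1c gave 7.79 and 7.28 in p57-/-, Absent on both arrays, against 10255 and 9866 in p57+/+. Between 48.5% and 50.1% of probe sets were called Present per array. Skeletal muscle genes stood out on p57+/+ replicate 1, where the actin gene Acta1 gave 1960.0 and the myosin light chain gene Mylpf 1222, against 50.3 to 105 and 218 to 299 on the other 3 arrays. Xist, the female-specific RNA (probe set 1436936_s_at), gave 7889 and 6412 in p57-/- against 12199 and 86.7 in p57+/+, and the Y-linked Eif2s3y (1417210_at) gave 966 and 904 against 2.56 and 1734. Both sex-linked transcripts were thus high on both p57-/- arrays, and each was high on only 1 p57+/+ array. The marker genes of mesothelium were detected, with 11 of 11 genes tested. Their summed signal was 19177 and 22747 in p57-/- and 18491 and 23166 in p57+/+. The samples also held hepatocyte, erythroid, macrophage and endothelial RNA, and in such mixed samples fewer cells of a type and less RNA per cell cannot be told apart.

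Of the 6 laminin genes Present on all 4 arrays, Lamb1, Lama3 and Lamc1 lay higher on both p57-/- arrays, while Lama1, Lamb2 and Lamb3 overlapped. Lama5 also lay higher in p57-/- and Lama2 lower, each Present only in the genotype where its signal was higher. None of these differences passed the test. Signals are the MAS5 signals deposited by the authors, on a linear scale, and each array's detection call (Present, Marginal or Absent) sets matched against mismatched probes. Tests were run where a probe set was Present on at least 2 of the 4 arrays, which held for 11 laminin probe sets of 8 genes and for 22800 probe sets in all. The log2 change is p57-/- minus p57+/+, by limma with adjustment over all probe sets tested. No laminin probe set passed an adjusted p of 0.05 (limma, lowest adjusted p = 0.519), and over all probe sets 1 of 22800 did, Cdkn1c, or 0.00439%. At an unadjusted p under 0.05, 5 of the 11 laminin probe sets were counted, 4 higher, beside 3.93% of all tested, and 1 lower, beside 3.75%. Among these 5, the probe sets of Lama5 and Lama2 passed the Present filter only through the genotype where they were higher. The Lamb1 probe sets among them share a transcript. Of the 7 laminin probe sets Present on all 4 arrays, 3 had an unadjusted p under 0.05 in limma. With 2 arrays against 2, an exact permutation test over arrays cannot give a two-sided p under 0.333, so none was run.

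Of the 11 tested laminin probe sets, 10 had a higher mean log2 signal in p57-/-, beside 51.1% of all tested probe sets, and 1 had a lower one. In 6 both p57-/- arrays lay above both p57+/+ arrays, beside 19.8% of all tested, and in 1 both lay below, beside 18.8%. The Present filter was met through p57-/- alone by 1427010_s_at of Lama5 and 1423886_at of Lamc1, and through p57+/+ alone by 1426285_at of Lama2, so that passing the filter rested on 1 genotype for these 3. Among the 7 laminin probe sets Present on all 4 arrays, from 6 genes, 4 had both p57-/- arrays above both p57+/+ arrays and 0 had them below, beside 20.6% and 18.6% of the 18988 probe sets with that filter. These 4 came from 3 genes, Lamb1, Lama3 and Lamc1, and the probe sets of Lamb1 share a transcript. The median log2 change of the 7 was 0.44, beside 0.01 over all probe sets Present on all 4 arrays. It was 0.52 in experiment 1 and 0.30 in experiment 2.

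**Figure D1:**
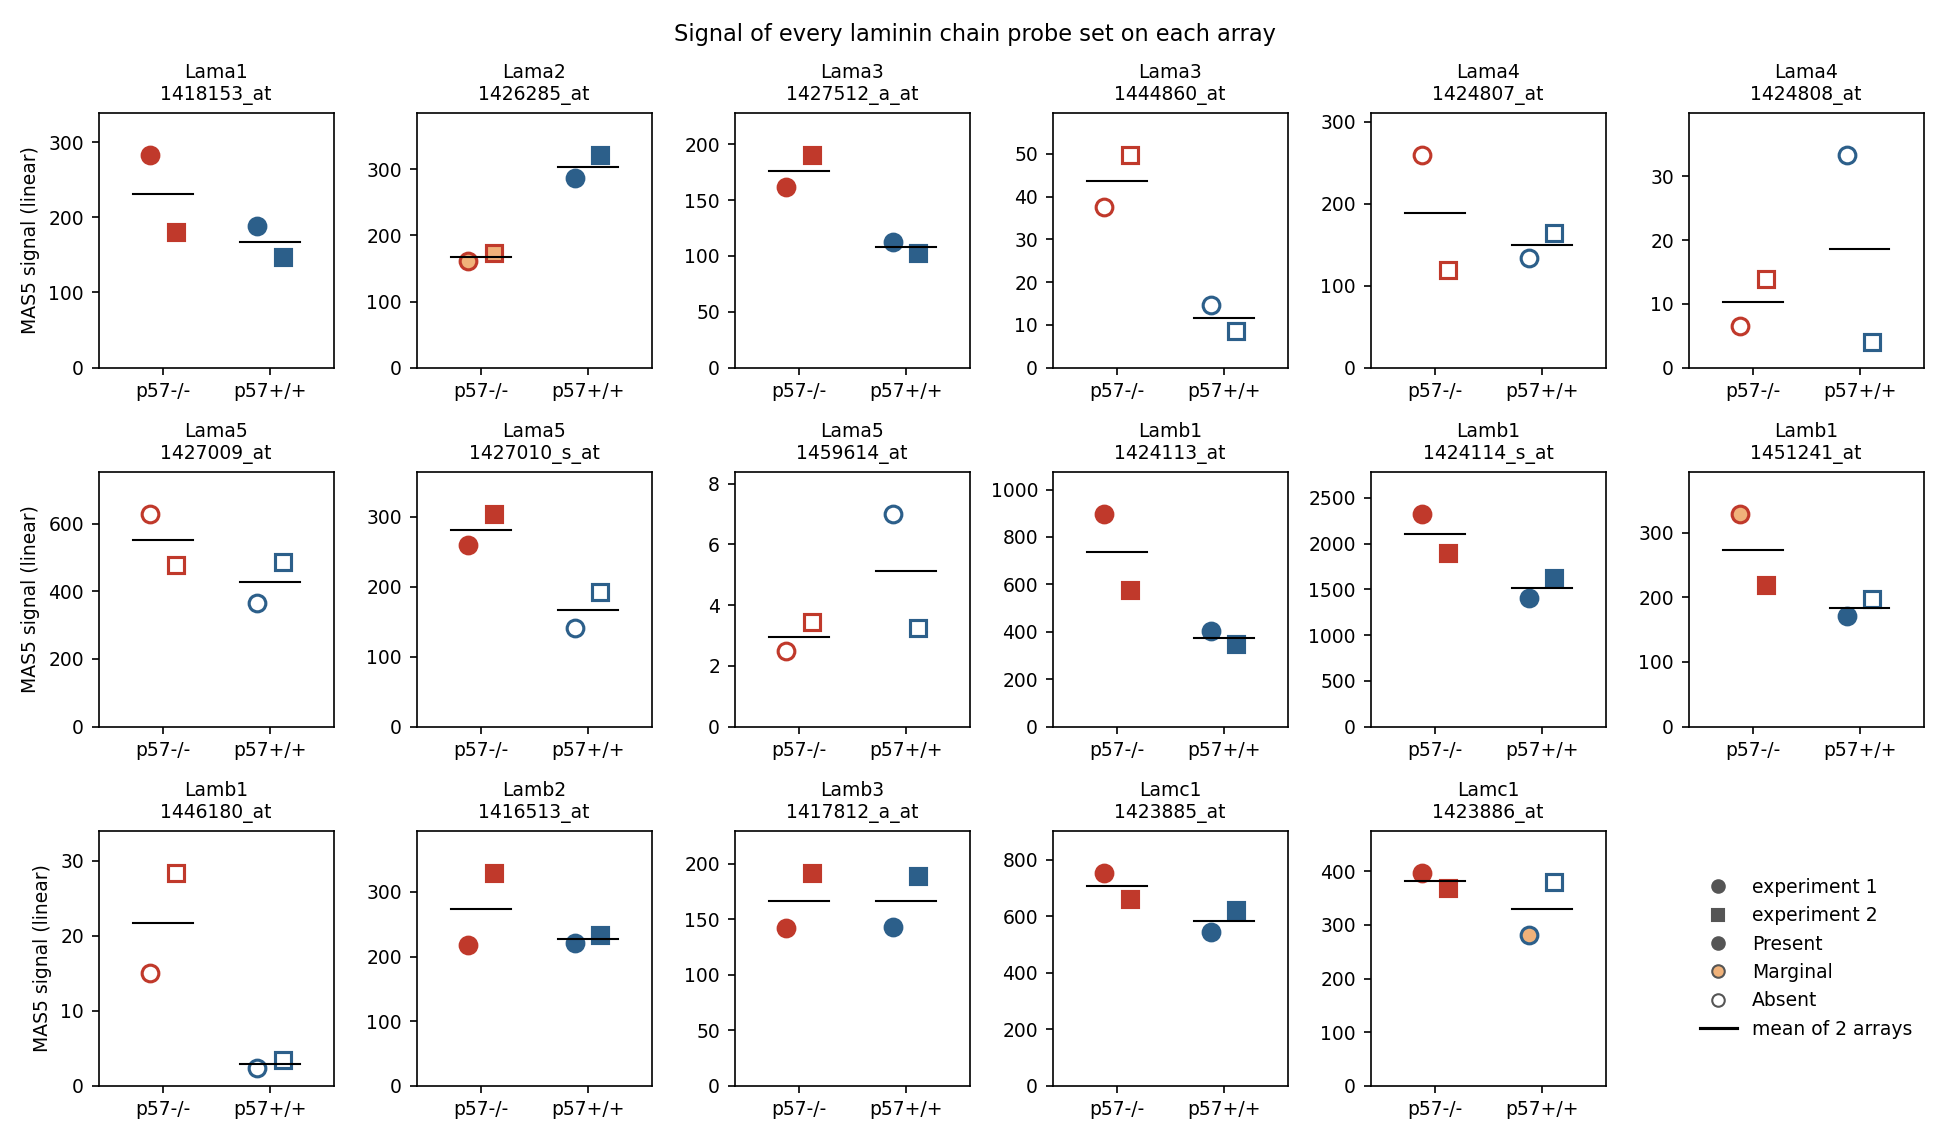
MAS5 signal (linear axis from 0) of all 17 laminin probe sets on the 4 arrays, with p57-/- left of p57+/+, circles for experiment 1, squares for experiment 2 and a line at the mean of 2 arrays. Filled symbols are Present, orange ones Marginal and open ones Absent. Lamb1 and Lama3 lie higher and Lama2 lies lower on both p57-/- arrays, while Lamb3 does not separate the genotypes.

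The largest higher laminin change among tested probe sets was in Lamb1, which encodes the beta 1 chain, a part of the most common laminins of the embryo. Its probe set 1424113_at gave 895 and 578 in p57-/- against 402 and 347 in p57+/+. Both p57-/- arrays lay above both p57+/+ arrays, and the p57-/- arrays differed more from each other than the p57+/+ arrays did. The means were 736 ± 224 in p57-/- and 374 ± 38.8 in p57+/+ (SD, n = 2 each), a 1.93-fold ratio of geometric means. The log2 change was 0.95 (SE 0.23, 95% interval 0.44 to 1.45), with a limma adjusted p = 0.519. Without p57-/- replicate 2 the change was 1.26 and passed (limma adjusted p = 0.0237), as 1 of 221 among all 22800 probe sets. That fit holds 1 p57-/- array, which is assumed to vary as the p57+/+ arrays do. In the fit without p57-/- replicate 1 the change was 0.63 (limma adjusted p = 0.720). Over the 10 alternatives tried, its adjusted p ran from 0.0237 to 0.924.

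The other tested Lamb1 probe sets also lay higher in p57-/-. Probe set 1424114_s_at gave 2320.0 and 1894 in p57-/- against 1411 and 1625 in p57+/+, with no overlap. Its log2 change was 0.47 (SE 0.15, 95% interval 0.13 to 0.81, limma adjusted p = 0.557). The suffix _s marks a probe set whose probes can match more than 1 transcript, so this signal may hold other RNA. Probe set 1451241_at gave 328 (Marginal) and 219 in p57-/- against 171 and 197 (Absent) in p57+/+. Its log2 change was 0.55 (SE 0.26, limma adjusted p = 0.653). All of these had a larger change in experiment 1, at 1.16, 0.72 and 0.94, than in experiment 2, at 0.74, 0.22 and 0.15. The remaining Lamb1 probe set, 1446180_at, was Absent on all 4 arrays and was not tested, with 15.0 and 28.3 in p57-/- against 2.40 and 3.42 in p57+/+.

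Lamc1 encodes the gamma 1 chain, shared by most laminins and the partner of beta 1. Its probe set 1423885_at gave 752 and 663 in p57-/- against 543 and 622 in p57+/+. The genotypes did not overlap, but the gap between the nearest arrays was smaller than the gap within either genotype. The log2 change was 0.28 (SE 0.17, 95% interval -0.10 to 0.66, limma adjusted p = 0.714). Its second probe set, 1423886_at, gave 396 and 369 in p57-/- against 281 (Marginal) and 379 (Absent) in p57+/+, with overlap and a log2 change of 0.23 (SE 0.21, limma adjusted p = 0.813). The 2 probe sets had changes of 0.47 and 0.49 in experiment 1 and of 0.09 and -0.04 in experiment 2.

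The other beta chains separated the genotypes less. Lamb2 encodes the beta 2 chain, known from the basement membranes of the kidney filter and of the nerve-muscle junction. It gave 217 and 329 in p57-/- against 220.5 and 233 in p57+/+, so that only the p57-/- array of experiment 2 stood apart. Its log2 change was 0.24 (SE 0.25, 95% interval -0.33 to 0.80, limma adjusted p = 0.841). Lamb3 encodes the beta 3 chain, which anchors the epidermis. It gave 142 and 191 in p57-/- against 143 and 189 in p57+/+, and was Present on all 4 arrays. The arrays of 1 experiment lay together whatever the genotype, and the log2 change was 0.00331 (SE 0.28, 95% interval -0.63 to 0.64, limma adjusted p = 0.998).

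Among alpha chains, Lama2 was the only tested laminin gene lower in p57-/-. It encodes the alpha 2 chain, whose loss in mice and humans causes muscular dystrophy. Probe set 1426285_at gave 162 and 173 in p57-/-, Marginal on both arrays, against 286 and 321 in p57+/+, Present on both. The genotypes did not overlap, and the changes of -0.83 in experiment 1 and -0.89 in experiment 2 were close to each other. Means were 167 ± 8.01 in p57-/- and 304 ± 24.5 in p57+/+ (SD, n = 2 each), a 1.81-fold lower signal in p57-/-. The log2 change was -0.86 (SE 0.22, 95% interval -1.36 to -0.36, limma adjusted p = 0.545). Detection p-values deposited by the authors were 0.0562 on both p57-/- arrays and 0.00586 and 0.00293 on the p57+/+ arrays.

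Marker genes of muscle and nerve, tissues that use the alpha 2 chain, are given beside Lama2. Of 6 skeletal muscle genes, 1 was tested, Mylpf, at 218 and 242 in p57-/- against 1222 and 299 in p57+/+. The regulators Myod1 and Myog were Absent on all 4 arrays. Without p57+/+ replicate 1, the array with the high Mylpf signal, the log2 change of Lama2 was -0.94 (limma adjusted p = 0.820). Smooth muscle genes, 3 tested of 6, summed to 3404 and 2736 in p57-/- against 3194 and 3521 in p57+/+, with overlap, and the actin gene Acta2 gave 1678 and 1255 in p57-/- against 1626 and 1943 in p57+/+. The nerve glia gene Sox10 was Absent on all 4 arrays with each of its probe sets. Of 3 nerve genes 1 was tested, Ngfr, at 176 and 166 in p57-/- against 189 and 225 in p57+/+. Ngfr is also counted among the stellate cell genes below, with the same probe set, so it does not mark nerve alone. The part of these tissues in the Lama2 values was not tested.

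Lama3, which encodes the alpha 3 chain that pairs with beta 3, was Present on all 4 arrays with probe set 1427512_a_at. It gave 162 and 190.0 in p57-/- against 112 and 103 in p57+/+, with no overlap. Means were 176 ± 20.0 in p57-/- and 108 ± 6.77 in p57+/+ (SD, n = 2 each). The log2 change was 0.70 (SE 0.28, 95% interval 0.09 to 1.32, limma adjusted p = 0.610), at 0.52 in experiment 1 and 0.89 in experiment 2. Its other probe set, 1444860_at, was Absent on all 4 arrays, with 37.5 and 49.6 in p57-/- against 14.7 and 8.67 in p57+/+. Lama3 and Lamb3 thus gave different values, with Lama3 separated by genotype and Lamb3 not, but the difference between these genes was not tested.

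Lama5 encodes the alpha 5 chain, known from mature epithelial and vessel basement membranes. Probe set 1427010_s_at was Present on both p57-/- arrays, at 260.3 and 304, and Absent on both p57+/+ arrays, at 141 and 193. This switch of call was seen in 1.39% of all tested probe sets. Its signal was 1.71-fold higher in p57-/- by the ratio of geometric means, with a fitted log2 change of 0.77 (SE 0.25, 95% interval 0.21 to 1.33, limma adjusted p = 0.557). Both p57+/+ signals, though called Absent, lay above the lowest Present signal of their array, 12.4 and 15.4. The ratio therefore uses the measured signals and is not a lower bound. Detection p-values were 0.0376 and 0.0186 in p57-/- and 0.0952 and 0.112 in p57+/+, so the calls sat near their limits. The other Lama5 probe sets were Absent throughout. Of these 1427009_at was bright yet not separated by genotype, at 627 and 477 in p57-/- against 366 and 487 in p57+/+, and 1459614_at lay between 2.49 and 6.99 on the 4 arrays.

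Lama1, which encodes the alpha 1 chain of the first embryonic basement membranes, was Present on all 4 arrays. It gave 282 and 181 in p57-/- against 188 and 147 in p57+/+. Each p57-/- array lay above the p57+/+ array of its own experiment, but p57-/- replicate 2 lay under p57+/+ replicate 1. The log2 change was 0.44 (SE 0.29, 95% interval -0.20 to 1.09, limma adjusted p = 0.737). Lama4, which encodes the alpha 4 chain of vessel walls and mesenchyme, was Absent on all 4 arrays with both of its probe sets. Probe set 1424807_at gave 259 and 120 in p57-/- against 134 and 164 in p57+/+, and 1424808_at gave 6.59 and 14.0 against 33.3 and 4.09. No level of Lama4 was thus measured by these calls, although its signal on 1424807_at was in the range of some probe sets called Present. Of all probe sets other than controls, 40.0% were Absent on all 4 arrays, as were 6 of the 17 laminin probe sets.

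**Figure D2:**
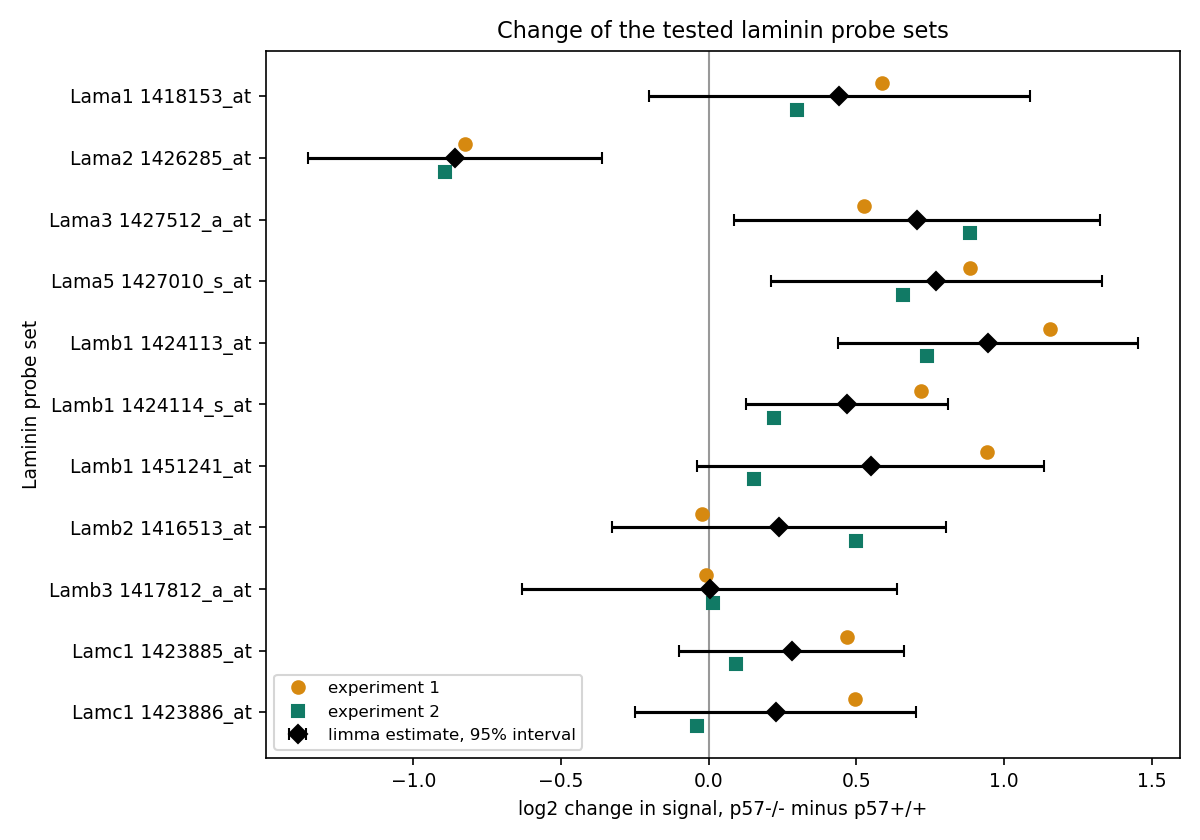
Log2 change in signal, p57-/- minus p57+/+, of the 11 tested laminin probe sets. Diamonds with bars are limma estimates with 95% intervals, circles are experiment 1 and squares experiment 2, and Lama2 at -0.86 is the only estimate under 0.

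The 2 experiments did not give the same sizes. Of the 11 tested laminin probe sets, 7 were higher in both experiments, beside 27.9% of all tested, 1 was lower in both, and 3 had opposite signs, Lamb2, Lamb3 and 1423886_at of Lamc1. The median change of the 11 was 0.52 in experiment 1 and 0.22 in experiment 2, beside 0.03 and -0.01 over all tested probe sets. In 7 of the 11 the change was larger in experiment 1, whatever its sign. These were the tested probe sets of Lamb1, Lamc1, Lama1 and Lama5, and no share over all tested probe sets was counted. Those of Lama5 and Lama2 and 1423886_at of Lamc1 passed the Present filter through 1 genotype alone. The Lamb1 probe sets share a transcript, so the counts are not of separate genes. For the laminin probe sets Present on all 4 arrays, the medians were 0.52 and 0.30, beside 0.03 and -0.0042 over all with that filter. With 1 array of each genotype per experiment, the difference between experiments has no test.

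Marker sums of some cell types also differed between the genotypes, some higher and some lower in p57-/-. The 8 mesenchyme genes, all tested, summed to 86960 and 78247 in p57-/- against 67023 and 75361 in p57+/+, and the 5 tested of 7 stellate cell genes to 19518 and 18808 against 15489 and 16905. Both sums were higher on both p57-/- arrays, and a few bright genes carry them, such as Reln with 16376 and 15974 in p57-/- against 13343 and 14714 in p57+/+. Without overlap, 5 of the 8 mesenchyme genes were higher and 1 was lower, Col1a1, at 2071 and 2134 in p57-/- against 2469 and 2465 in p57+/+. Of the 5 stellate cell genes 4 were higher and 1 was lower, Ngfr, also named above for nerve, at a log2 change of -0.27. Over all tested probe sets these shares were 19.8% higher and 18.8% lower. Single members differed more than the sums, and Hhip, a Hedgehog-binding protein gene of the stellate list, gave 837 and 785 in p57-/- against 438 and 471 in p57+/+. Its log2 change of 0.84 (SE 0.16, limma adjusted p = 0.519) stands beside 0.95 for 1424113_at of Lamb1. The bright keratin genes Krt8 and Krt18 weigh on the mesothelium sum given above, whose members went both ways. Of its 11 genes, 4 were higher without overlap, Wt1 at a log2 change of 0.64, Bnc1 at 0.60, Alcam at 0.39 and Gpm6a at 0.35, and 2 were lower, Lrrn4 at -0.18 and Krt18 at -0.24, and none of these passed in limma. At an unadjusted p under 0.05 in limma, 6 of 22 mesothelium probe sets were higher, beside 3.93% of all tested, and 1 was lower, beside 3.75%. The 22 probe sets came from 11 genes, so probe sets of 1 gene are counted separately here. The 6 erythroid genes, all tested, summed to 57483 and 76912 in p57-/- against 87152 and 90696 in p57+/+, lower on both p57-/- arrays. All 6 were lower without overlap, beside 18.8% of all tested probe sets, at a median log2 change of -0.53, and none passed in limma. Endothelial genes, 7 tested of 8, summed to 10990 and 8237 in p57-/- against 8363 and 9332 in p57+/+, high only in p57-/- replicate 1. Bile duct genes, 3 tested of 4, summed to 1294 and 1605 against 1102 and 1664, with the epithelial gene Epcam mostly Absent. No marker signal was at 0, and the part of these cell types in the laminin values was not tested.

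**Figure D3:**
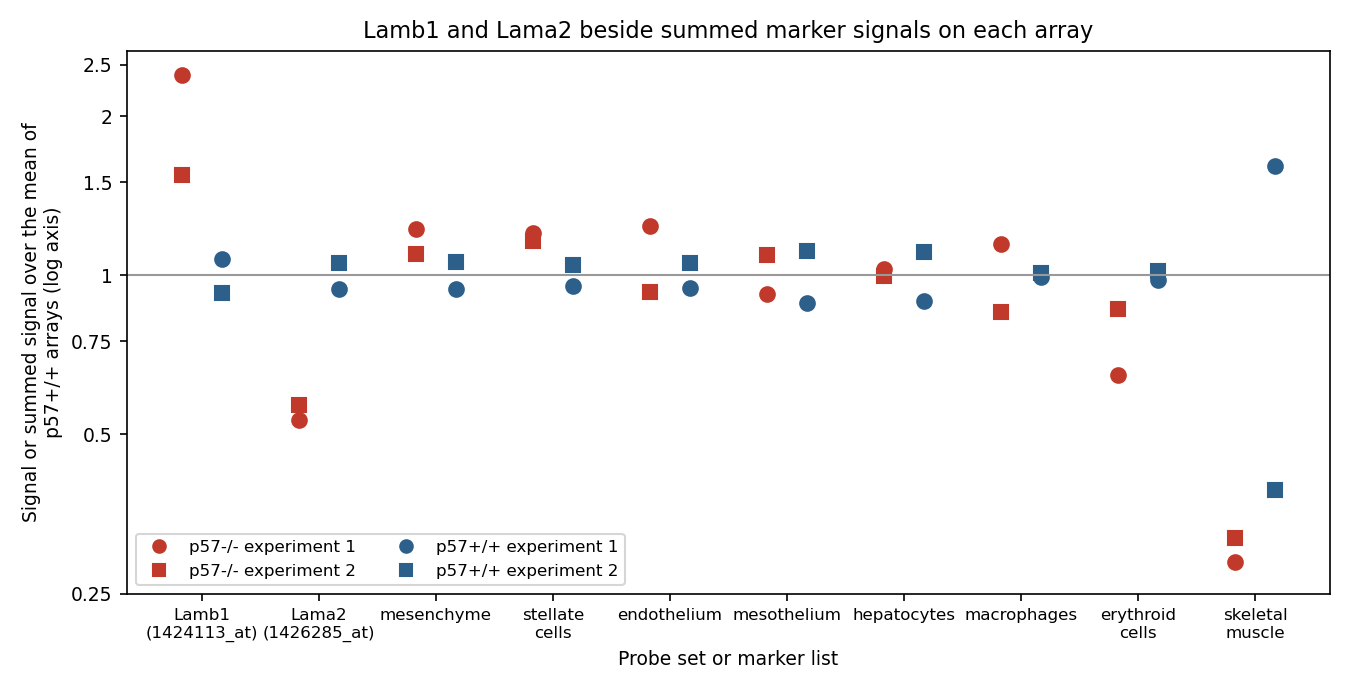
Signal of Lamb1 (1424113_at) and Lama2 (1426285_at) and summed signal of marker lists on each array, divided by the mean of the p57+/+ arrays (log axis), with p57-/- in red left of p57+/+ in blue. Lamb1 on the p57-/- arrays stands at 2.39 and 1.55, the mesenchyme sums stand at 1.22 and 1.10, and the skeletal muscle value of p57+/+ replicate 1 stands at 1.61.

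Lamc3, which encodes the gamma 3 chain, gave no tested value. It was Absent on all 4 arrays with its 2 probe sets, between 8.07 and 74.1.

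Partners of laminin in the basement membrane were counted in the same way. Of 22 partner genes, 19 were tested with the brightest probe set of each, and no probe set passed (limma, 2 of 29 higher at an unadjusted p under 0.05, beside 3.93% of all tested, and 0 lower). Both p57-/- arrays lay above both p57+/+ arrays for 7 of the 19, beside 19.8% of all tested probe sets, and below for 2, beside 18.8%. The median log2 change was 0.12, beside 0.36 for the 8 laminin genes chosen the same way. Among these 8, Lama5 passed the Present filter through p57-/- alone and Lama2 through p57+/+ alone. Among the partners, Col4a6 passed it through p57-/- alone. The difference between these medians was not tested. Smoc1, which encodes a calcium-binding matrix protein of basement membranes, gave 3240.1 and 2409 in p57-/- against 1559 and 1949 in p57+/+, with no overlap. Its log2 change was 0.68 (SE 0.18, limma adjusted p = 0.537), and without p57-/- replicate 2 it was 0.89 and passed (limma adjusted p = 0.0375), the only partner among the 221 probe sets that passed in that fit with 1 p57-/- array. Ntn4 encodes netrin-4, which binds laminin gamma chains and can disturb the laminin sheet. It gave 416 and 344 in p57-/- against 218 and 318 in p57+/+, and its log2 change was 0.52 (SE 0.24, limma adjusted p = 0.645). Another Ntn4 probe set, 1450512_at, was Absent on all 4 arrays, with 12.2 and 1.64 in p57-/- against 40.1 and 32.8 in p57+/+. Col18a1, the collagen XVIII gene, was at 0.28 (SE 0.12, limma adjusted p = 0.642) with probe set 1418237_s_at, without overlap. Its probe set 1426955_at was at 0.14 (SE 0.13, limma adjusted p = 0.812), also without overlap. Col4a5, a collagen IV chain gene, was at 0.30 (SE 0.16, limma adjusted p = 0.681), without overlap. The 2 partners lower without overlap were also collagen IV chain genes. Col4a1 was at -0.23 (SE 0.13, limma adjusted p = 0.698) and Col4a2 at -0.16 (SE 0.15, limma adjusted p = 0.801). A dimmer Col4a1 probe set, 1426348_at, overlapped, at -0.03.

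Receptors of laminin gave no call either. Of 12 receptor genes, 9 were tested, and 0 of their 22 probe sets passed or had an unadjusted p under 0.05 in limma. Their median log2 change was 0.13, with 2 of 9 genes higher and 1 lower without overlap, near the 19.8% and 18.8% of all tested. Sdc4, which encodes the cell surface proteoglycan syndecan-4, gave 5152 and 3998 in p57-/- against 3462 and 4105 in p57+/+. Its log2 change was 0.27 (SE 0.15, limma adjusted p = 0.700). Itga3, the alpha 3 subunit of an integrin that binds laminins with alpha 3 and alpha 5 chains, gave 373 and 353 in p57-/- against 279 and 321 in p57+/+. Its log2 change was 0.28 (SE 0.20, limma adjusted p = 0.753). Dag1, which encodes dystroglycan, gave 2886 and 2911 in p57-/- against 3146 and 3111 in p57+/+, a small difference without overlap at a log2 change of -0.11 (SE 0.12, limma adjusted p = 0.845). Its dimmer probe sets 1423872_a_at, 1426779_x_at and 1456131_x_at overlapped, at 0.24, 0.13 and -0.03. The tetraspanin gene Cd151, whose product holds laminin-binding integrins, was at 0.13 (SE 0.13, limma adjusted p = 0.836).

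Dystroglycan binds laminin through sugars added by a set of glycosyltransferases. The 4 such genes with a probe set had a median log2 change of -0.02, and 0 of 5 probe sets passed or had an unadjusted p under 0.05 in limma. Pomt2, an enzyme of the first step, was at 0.28 (SE 0.24) and Pomgnt1 at -0.18 (SE 0.17), while B4gat1 was at -0.08 (SE 0.18) and Pomt1 at 0.05 (SE 0.27), with limma adjusted p-values from 0.793 to 0.976. Of these only Pomgnt1 separated the genotypes, at 588 (Marginal) and 499.7 (Absent) in p57-/- against 616 and 613 in p57+/+.

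**Figure D4:**
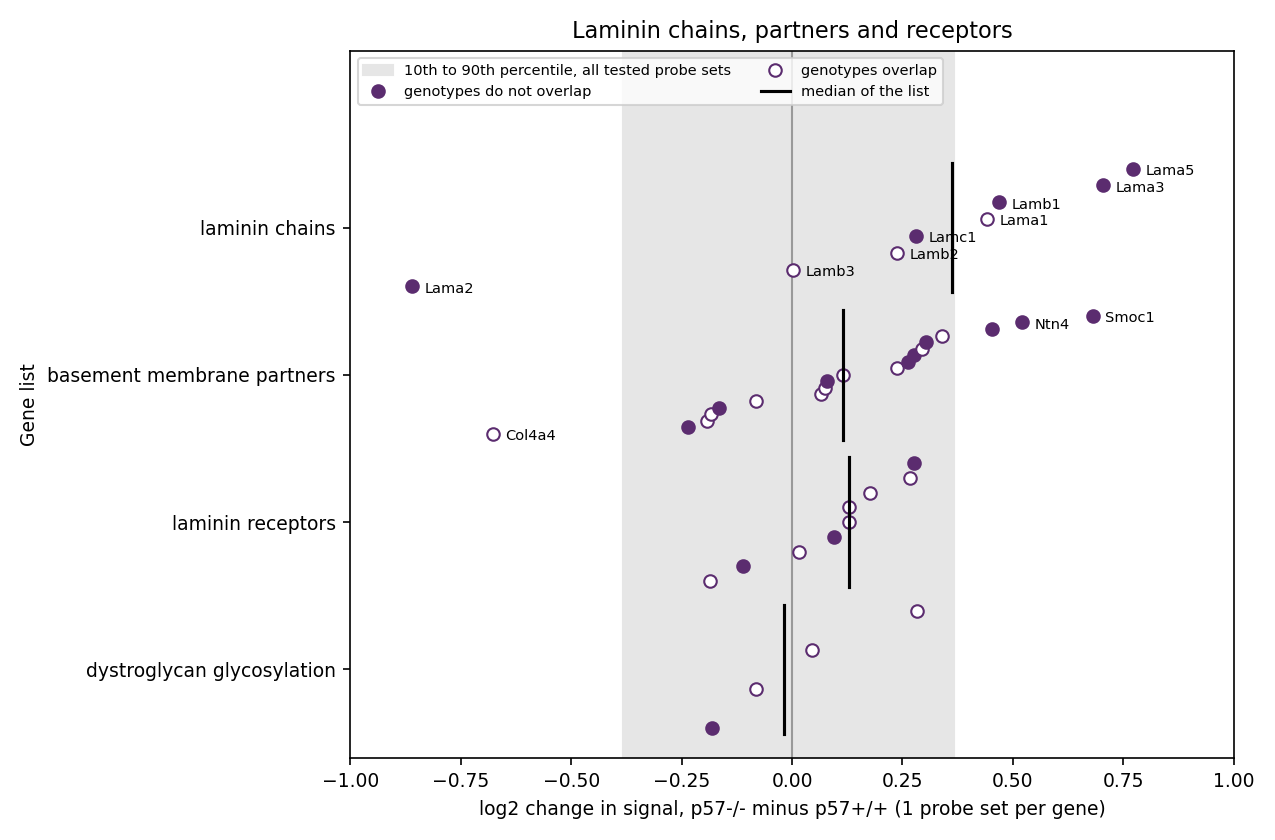
Log2 change in signal, p57-/- minus p57+/+, of the brightest tested probe set of each gene, for laminin chains, basement membrane partners, laminin receptors and dystroglycan glycosylation. Filled points are genes whose genotypes do not overlap, and black lines are list medians. Grey marks the 10th to 90th percentile of all tested probe sets, from -0.38 to 0.37. Outside it lie Lama5, Lama3, Lamb1, Lama1 and Lama2 among laminin genes. Lama5 and Col4a6 passed the Present filter through p57-/- alone, and Lama2 and Pomgnt1 through p57+/+ alone.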

How the data were processed

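Total RNA of 4 samples, 2 per genotype, was labelled as biotinylated cRNA from 250 ng with a kit that primes at the 3' end, per the labels' protocols, and each was read on 1 single-colour array. The authors deposited the MAS5 signal intensity of 45101 probe sets per array on a linear scale, per the file headers (and MAS5 by name in the submitters' processing notes), with a detection p-value and a call. The sources used here do not give the MAS5 version or its background steps. With the top and bottom 2% of signals trimmed, each of the 4 arrays had a mean of 500.003, which shows scaling to 1 target and fixes each array's average. The deposited value table held the same signals, within 0.0005%.

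Signals were log2 transformed with no further normalization or pseudocount, and the 64 controls were left out. Probe sets Present on at least 2 of 4 arrays were tested with limma 3.58.1 in R 4.3.3 (lmFit, eBayes with a variance trend, no block, two-sided, Benjamini-Hochberg over all tested, threshold 0.05), a script checked on simulated data. The number of arrays limits the precision. Symbols came from the platform annotation. All laminin probe sets are named, with Cdkn1c and, from each companion list, up to 4 tested genes of lowest unadjusted p, by the brightest probe set of each. Col4a1 and Col4a2 are named besides, as the partners lower without overlap. Markers and sex-linked genes were named after their values were seen. Members and lists were chosen with earlier results of these data known. Alternatives were quantile normalization, a pseudocount of 16, other Present filters, no variance trend, the experiment number as a block and leaving out each array.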

Additional observations from a re-analysis of the deposited data

How the results depend on the processing

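No laminin probe set passed in the main test or under 9 of the 10 alternatives, and without p57-/- replicate 2 the count was 1, 1424113_at of Lamb1. Leaving out each array in turn gave 0 to 1 laminin probe sets, 0 to 1 partner probe sets, 0 receptor probe sets and 0 of dystroglycan glycosylation. Over all probe sets 1 passed in the main test, and leaving out each array gave 5 to 221. With the experiment number as a replicate block 30 passed, 10 higher and 20 lower, none of them laminin, and the lowest laminin adjusted p under that block was 0.0601, for 1424113_at. Among probe sets Present on all 4 arrays 0 passed, since this filter removes Cdkn1c. What same-numbered arrays shared beyond a title is not known. Their deviations from their genotype means correlated at 0.00460 over 22800 probe sets, and the main test did not treat them as pairs. This correlation cannot show that nothing was shared. Of 106 alternative values of the 11 laminin probe sets, 3 reversed in sign. These were Lamb2 without p57-/- replicate 2 (-0.061) and Lamb3 without p57-/- replicate 2 (-0.21) or p57+/+ replicate 1 (-0.20), and the cause was not tested. Over the arrays left out, Lamb2 ran from -0.061 to 0.54 and Lamb3 from -0.21 to 0.22. For Lama2 the change stayed between -0.94 and -0.78, and for 1424113_at between 0.63 and 1.26. The 6 laminin probe sets Absent on all 4 arrays, some dim and some not, were tested only with no filter on Present calls. A fit without 1 array assumes that the lone array of that genotype varies as the other genotype does.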
